A study of Mus musculus with 16 samples.

Results

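The carboxylesterases measured here are 10 mouse liver genes, 6 of the *Ces1* family (*Ces1b*, *Ces1c*, *Ces1d*, *Ces1e*, *Ces1f* and *Ces1g*) and 4 of the *Ces2* family (*Ces2a*, *Ces2c*, *Ces2e* and *Ces2g*). They were taken by symbol from the 18209 named genes of the deposited table, and all 10 were among the 15781 genes tested. The livers came from 16 mice labelled male and aged 20 days, 4 in each of 4 genotypes. The control was *Trsp* fl/fl, with both alleles of the selenocysteine tRNA gene floxed and no Cre. In *Trsp* fl/fl::AlbCre mice, Cre driven by the albumin promoter deletes *Trsp* in hepatocytes and leaves other liver cells able to make selenoproteins. *Trsp* has no row among the named genes, and its loss could not be read directly from these values. The paper reports lower selenoprotein transcripts and proteins in livers with AlbCre. Mice labelled Keap1C226SC613Shomo::Trspfl/fl, called *Keap1* mutants below, carry the cysteine-to-serine substitutions C226S and C613S of KEAP1 on both alleles in all tissues, together with the floxed alleles and no Cre. Mice labelled Keap1C226SC613Shomo::Trspfl/fl::AlbCre, called compound mutants below, carry both these substitutions and the hepatocyte deletion. KEAP1 is the repressor of NRF2, and the study asked whether these cysteines of KEAP1 are needed for the response of liver to selenoprotein deficiency.

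Carboxylesterases are serine hydrolases that cleave esters, amides and thioesters, among them drugs, pro-drugs, pesticides and neutral lipids. Most are held in the lumen of the endoplasmic reticulum by a retention signal at the carboxyl end, and hepatocytes are among the cells that make the most of them. The mouse has many more genes of the *Ces1* and *Ces2* families than humans have, arranged in tandem. Liver carboxylesterases are known to respond to nuclear receptors for foreign compounds such as CAR and PXR, and some of them to NRF2.

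In the RefSeq annotation of GRCm38, all 10 genes lie on chromosome 8 in a pair of tandem clusters. *Ces1a*, *Ces1b*, *Ces1c*, *Ces1d*, *Ces1e*, *Ces1f*, *Ces1g*, *Ces1h* and *Ces5a* follow each other with 0 other protein-coding genes between neighbours. The *Ces2* cluster begins with *Ces2a*, 68 protein-coding genes further on. *Ces1a*, *Ces1h*, *Ces2f*, *Ces2h*, *Ces5a* and the pseudogene *Ces2d-ps* are not analysed here. RefSeq promoter windows were matched for 8 of the 10 genes, and none were matched for *Ces1d* and *Ces1f*. The 250 bases before the transcript start are given, on the strand of the gene, for the genes whose levels differed most between genotypes, and for *Ces1b* and *Ces1c*, whose windows are close copies. *Ces1b* (chr8:93079941-93080190, minus strand) and *Ces1c* (chr8:93131284-93131533, minus strand) share a run of 58 bases, printed in capitals:
Ces1b: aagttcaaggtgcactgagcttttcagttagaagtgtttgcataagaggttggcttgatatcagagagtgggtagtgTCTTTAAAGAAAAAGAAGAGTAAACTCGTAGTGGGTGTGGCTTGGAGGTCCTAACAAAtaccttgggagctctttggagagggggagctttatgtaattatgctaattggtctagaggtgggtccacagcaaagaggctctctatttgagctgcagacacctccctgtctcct
Ces1c: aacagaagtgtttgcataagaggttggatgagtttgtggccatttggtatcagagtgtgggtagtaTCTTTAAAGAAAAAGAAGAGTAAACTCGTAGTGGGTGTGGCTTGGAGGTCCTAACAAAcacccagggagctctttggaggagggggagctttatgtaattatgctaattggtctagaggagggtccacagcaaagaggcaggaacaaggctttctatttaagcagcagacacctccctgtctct
The windows of *Ces1e* (chr8:93229620-93229869, minus strand), *Ces1g* (chr8:93337210-93337459, minus strand) and *Ces2c* (chr8:104846818-104847067, plus strand) are shown in lower case throughout, since the motif searched for was not in them:
Ces1e: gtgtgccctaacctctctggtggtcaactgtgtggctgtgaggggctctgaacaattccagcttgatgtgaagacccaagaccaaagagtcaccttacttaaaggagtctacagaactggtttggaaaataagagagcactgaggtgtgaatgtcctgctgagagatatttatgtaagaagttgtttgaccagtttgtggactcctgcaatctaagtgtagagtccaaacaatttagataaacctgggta
Ces1g: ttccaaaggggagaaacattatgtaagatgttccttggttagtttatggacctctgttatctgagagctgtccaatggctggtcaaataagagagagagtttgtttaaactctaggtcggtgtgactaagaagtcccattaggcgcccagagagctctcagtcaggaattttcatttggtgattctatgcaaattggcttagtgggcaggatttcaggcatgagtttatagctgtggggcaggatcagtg
Ces2c: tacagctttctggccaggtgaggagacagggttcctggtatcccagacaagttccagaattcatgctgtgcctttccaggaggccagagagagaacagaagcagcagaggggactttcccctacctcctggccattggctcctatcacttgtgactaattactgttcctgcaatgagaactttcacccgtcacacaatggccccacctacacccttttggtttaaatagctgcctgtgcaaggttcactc
The letters TGACNNNGC, the core of the antioxidant response element bound by NRF2, were searched on both strands. They were in 0 of the 9 windows of the members, against 3338 of 32851 windows of the same length over all genes, which is 10.2%. This says only that these letters are not in these bases.

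The near-copies also share transcript sequence. Of the stretches of 31 bases in its longest coding transcript, *Ces2c* shared 53.8% with other carboxylesterase transcripts, 50.2% with the pseudogene *Ces2d-ps* alone. *Ces1c* shared 26.6% and *Ces1b* 23.1%, mostly with each other. The other 7 genes shared between 4.9% and 9.5%. Reads of *Ces2c*, *Ces1b* and *Ces1c* may therefore have been shared out among close copies when reads were counted, and their levels are less certain than those of the other members.

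Libraries held between 11324808 and 19106203 reads on named genes. The deposited values are log2(normalized count + 4), where the normalized count is the reads of a gene divided by a size factor of the library. Values in this text are on that log2 scale unless named as reads, normalized counts or levels per length, and fold changes on it understate the change of weakly expressed genes. The library of compound mutant replicate 1 stood apart, with 28799 *Xist* reads where the 15 others had 22 to 50. It had 2 reads on 4 Y-linked genes where they had 1830 to 3066, which goes against its male label. Log2 fold changes of the members that use the compound mutants are given with and without it, while levels, means and shares over all genes include it. Hepatocyte markers were high in every library (7 of 7 listed genes measured, none at 0). The summed normalized count of these 7 was 1580000 to 1920000 in controls, 1550000 to 1920000 in *Trsp* fl/fl::AlbCre, 1790000 to 2160000 in *Keap1* mutants and 956000 to 1710000 in compound mutants. In whole liver, fewer cells of a type and less RNA per cell cannot be told apart.

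Per length, the *Ces1* family was dominated by *Ces1c*, which encodes the esterase that rodents secrete into plasma. As RPKM, computed here from the longest coding transcript and the reads on named genes, *Ces1c* reached 2070 ± 210 in controls (SD, n = 4) and made up 82.6% of the summed level of the 6 *Ces1* members. Its share was 76.3% in *Trsp* fl/fl::AlbCre, 83.6% in *Keap1* mutants and 84.9% in compound mutants. *Ces1d*, the triacylglycerol hydrolase that supplies lipid for very-low-density lipoprotein, was at 231 ± 33.1 in controls. *Ces1b* followed at 94.5 ± 88.0 and *Ces1g* at 86.0 ± 22.0, and the ranges of these neighbours in the order overlapped over the 4 mice. *Ces1e* at 16.6 ± 4.23 and *Ces1f* at 13.3 ± 9.0 stood below them, with ranges that overlapped each other but not that of *Ces1g*.

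The order of the lower *Ces1* members differed by genotype while *Ces1c* stayed above all others. *Ces1g* held 3.48% of the *Ces1* sum in controls, 7.34% in *Trsp* fl/fl::AlbCre, 0.298% in *Keap1* mutants and 1.1% in compound mutants. *Ces1f* held 0.515%, 1.66%, 0.0351% and 0.0207% in the same order of genotypes. The summed level of the 6 genes was 2510 ± 318, 2610 ± 503, 2480 ± 371 and 1960 ± 499, so that these shifts took place under a total set by *Ces1c*.

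In the *Ces2* family, *Ces2a* led in every genotype with 60.3% of the sum of the 4 members in controls, 54.6% in *Trsp* fl/fl::AlbCre, 58.5% in *Keap1* mutants and 62.7% in compound mutants. *Ces2e* came next, then *Ces2g*, and *Ces2c* was lowest. In controls the ranges of these neighbours did not overlap, while in *Trsp* fl/fl::AlbCre every neighbouring pair overlapped. *Ces2c*, which hydrolyses neutral lipids and drug esters, had an RPKM of 1.44 ± 0.544 in controls and of 16 ± 11.6 in *Trsp* fl/fl::AlbCre, which took its share of the *Ces2* sum from 0.859% to 7.19%. In *Keap1* mutants and in compound mutants that share was 0.302% and 0.628%.

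**Figure D1:**
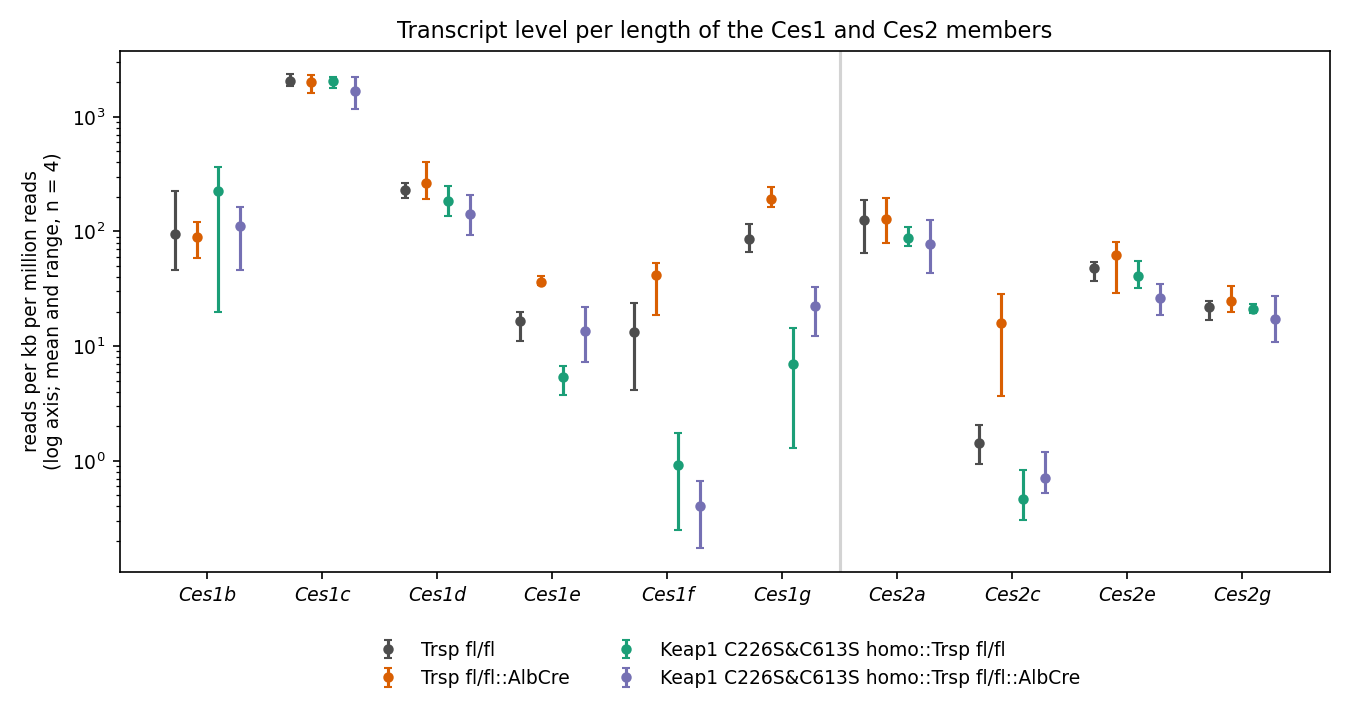
Level per length of the 10 genes in 4 genotypes, as RPKM (reads per kb of transcript, scaled to the reads on named genes) on a log axis, with points at the mean and bars from the lowest to the highest of 4 mice. *Ces1c* lies near 2000 in every genotype except the compound mutants (1670), while *Ces1f* runs from 41.5 in *Trsp* fl/fl::AlbCre to 0.404 in compound mutants.

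Whether the KEAP1 substitutions changed carboxylesterase transcripts in livers that lack selenoproteins was asked by comparing compound mutants with *Trsp* fl/fl::AlbCre mice. Here 3 of the 10 members were lower, *Ces1f*, *Ces1g* and *Ces2c*, and 0 were higher. Over all genes tested 0.456% were called lower and 0.114% higher in this comparison. Calls needed a log2 fold change beyond 1 in size together with an adjusted p under 0.01 (limma, Benjamini-Hochberg, every tested gene). The median log2 fold change of the 10 members was -1.16, against 0.006 over all genes tested. For the 7 hepatocyte markers it was -0.28, with 4 negative and 3 positive, and their part was not tested. The genes *Ces1e*, *Ces1f* and *Ces1g* stand in the study's own selection of genes lower in *Keap1* mutants than in controls. *Ces2c* stands in its selection of genes raised in *Trsp* fl/fl::AlbCre against controls. Both selections were made on libraries of this series, so the directions of these genes are not independent evidence.

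*Ces1f* (ENSMUSG00000031725), a microsomal lipase, showed the widest range of genotype means of all members, 6.33. In controls the log2 values of replicates 1 to 4 were 9.0, 9.47, 6.97 and 7.90. In *Trsp* fl/fl::AlbCre they were 10.59, 9.06, 10.61 and 10.36. All of these lay above every library with the substitutions. The values were 5.79, 4.27, 5.23 and 3.54 in *Keap1* mutants and 3.83, 3.78, 3.10 and 4.59 in compound mutants. In reads, compound mutants had 5 to 20 per library and *Trsp* fl/fl::AlbCre 404 to 1516. *Ces1f* fell by 6.33 in compound mutants relative to *Trsp* fl/fl::AlbCre (standard error 0.56, limma adjusted p = 9.4e-06), and the mean normalized count was 111-fold lower (11.1 against 1232). Without compound mutant replicate 1 the log2 fold change was again -6.33 (adjusted p = 5.9e-05). The call was kept under each of the 16 fits that left out a library.

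*Ces1g* (ENSMUSG00000057074), a liver carboxylesterase with triacylglycerol hydrolase activity, was also far lower with the substitutions. Its values were 12.05, 11.67, 11.39 and 11.24 in controls and 13.15, 12.54, 12.52 and 12.77 in *Trsp* fl/fl::AlbCre. They were 9.02, 5.64, 6.26 and 8.63 in *Keap1* mutants and 8.54, 9.93, 9.07 and 10.23 in compound mutants. The genotypes without the substitutions did not overlap with those that carry them, and the 4 *Keap1* mutants mice spread over more than 3 log2 units (SD 1.68). *Ces1g* fell by 3.30 in compound mutants relative to *Trsp* fl/fl::AlbCre (standard error 0.60, limma adjusted p = 0.0081), with a mean normalized count 9.09-fold lower. This call was close to the threshold: it was kept in 5 of the 16 fits that left out a library. Leaving out any control, any *Trsp* fl/fl::AlbCre library or compound mutant replicate 1, 2 or 3 gave adjusted p-values from 0.011 to 0.036, with replicate 1 left out at -3.00 (adjusted p = 0.036).

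*Ces2c* (ENSMUSG00000061825) was the one *Ces2* member called in this comparison. Its values were 6.06, 5.79, 5.13 and 5.03 in controls and 8.14, 6.80, 9.42 and 9.81 in *Trsp* fl/fl::AlbCre. With the substitutions they were 3.76, 3.95, 4.87 and 3.76 without AlbCre and 4.17, 5.26, 4.29 and 4.32 in compound mutants. The *Trsp* fl/fl::AlbCre mice lay above all other libraries, with replicate 2 the lowest of them. *Ces2c* fell by 4.03 in compound mutants relative to *Trsp* fl/fl::AlbCre (standard error 0.52, limma adjusted p = 0.00043), a mean normalized count 24.5-fold lower (20.0 against 490.1). Without compound mutant replicate 1 the log2 fold change was -3.92 (adjusted p = 0.0025). The call was lost with limma voom on the recovered reads (adjusted p = 0.02) and in a fit of the compared groups alone (adjusted p = 0.017).

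*Ces1e* (ENSMUSG00000061959) encodes egasyn, which holds beta-glucuronidase in the endoplasmic reticulum. Its values were 9.33, 9.31, 8.95 and 8.49 in controls and 10.37, 10.08, 10.16 and 10.13 in *Trsp* fl/fl::AlbCre. They were 7.74, 6.90, 7.43 and 7.58 in *Keap1* mutants and 7.60, 8.92, 8.03 and 9.46 in compound mutants. Compound mutants lay below all *Trsp* fl/fl::AlbCre mice, and the difference of -1.68 (standard error 0.32, limma adjusted p = 0.012) missed the threshold. Without compound mutant replicate 4, its highest library, it was -2.0 (adjusted p = 0.00085) and passed, and without replicate 1 it was -1.38 (adjusted p = 0.035). *Gusb*, the gene of beta-glucuronidase, had a log2 fold change of -0.22 (adjusted p = 0.5) in the same comparison and between -0.11 and 0.25 in the other comparisons of groups.

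*Ces2e* had a log2 fold change of -1.28 in compound mutants relative to *Trsp* fl/fl::AlbCre (limma adjusted p = 0.041) with overlapping groups. It passed when *Trsp* fl/fl::AlbCre replicate 2, the lowest of its group, was left out (-1.62, adjusted p = 0.0028), and without compound mutant replicate 1 it was -1.06 (adjusted p = 0.14). At an adjusted p under 0.05, 5 members were lower, against 0.792% of all genes. The 5 further members, *Ces1b*, *Ces1c*, *Ces1d*, *Ces2a* and *Ces2g*, had log2 fold changes of 0.13, -0.40, -1.03, -0.85 and -0.69 with adjusted p-values from 0.09 to 0.95, and their groups overlapped. With compound mutant replicate 1 left out these were 0.16, -0.19, -0.79, -0.54 and -0.44. At that threshold 0.406% of all genes were higher and 0 members. When compound mutant replicate 1 was left out, the genes called over all those tested went from 18 to 10 higher and from 72 to 48 lower, and at an adjusted p under 0.05 from 64 to 31 higher and from 125 to 84 lower. In all, 4 members lay wholly below the *Trsp* fl/fl::AlbCre mice (*Ces1e*, *Ces1f*, *Ces1g* and *Ces2c*), where 4.08% of all genes did so, and 0 members lay wholly above them, where 4.53% of all genes did. Beside these differences, summed acinar pancreas markers (6 of 7 listed genes measured, *Amy2a5* at 0 in 13 libraries) were 327 to 927 in compound mutants against 83.0 to 160 in *Trsp* fl/fl::AlbCre, and summed B cell markers (5 of 5) were 175 to 456 against 99.7 to 161. The acinar sum was carried by *Amy2a1* (mean normalized count 425.2 against 37.4) and *Pnliprp1* (45.9 against 11.6), while *Cela1* (47.5 against 63.8), *Ctrb1* (3.54 against 9.2) and *Amy2a5* (0 against 2.46) had lower means and *Cpa1* was at 2.95 against 2.61. Their part in the result was not tested.

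**Figure D2:**
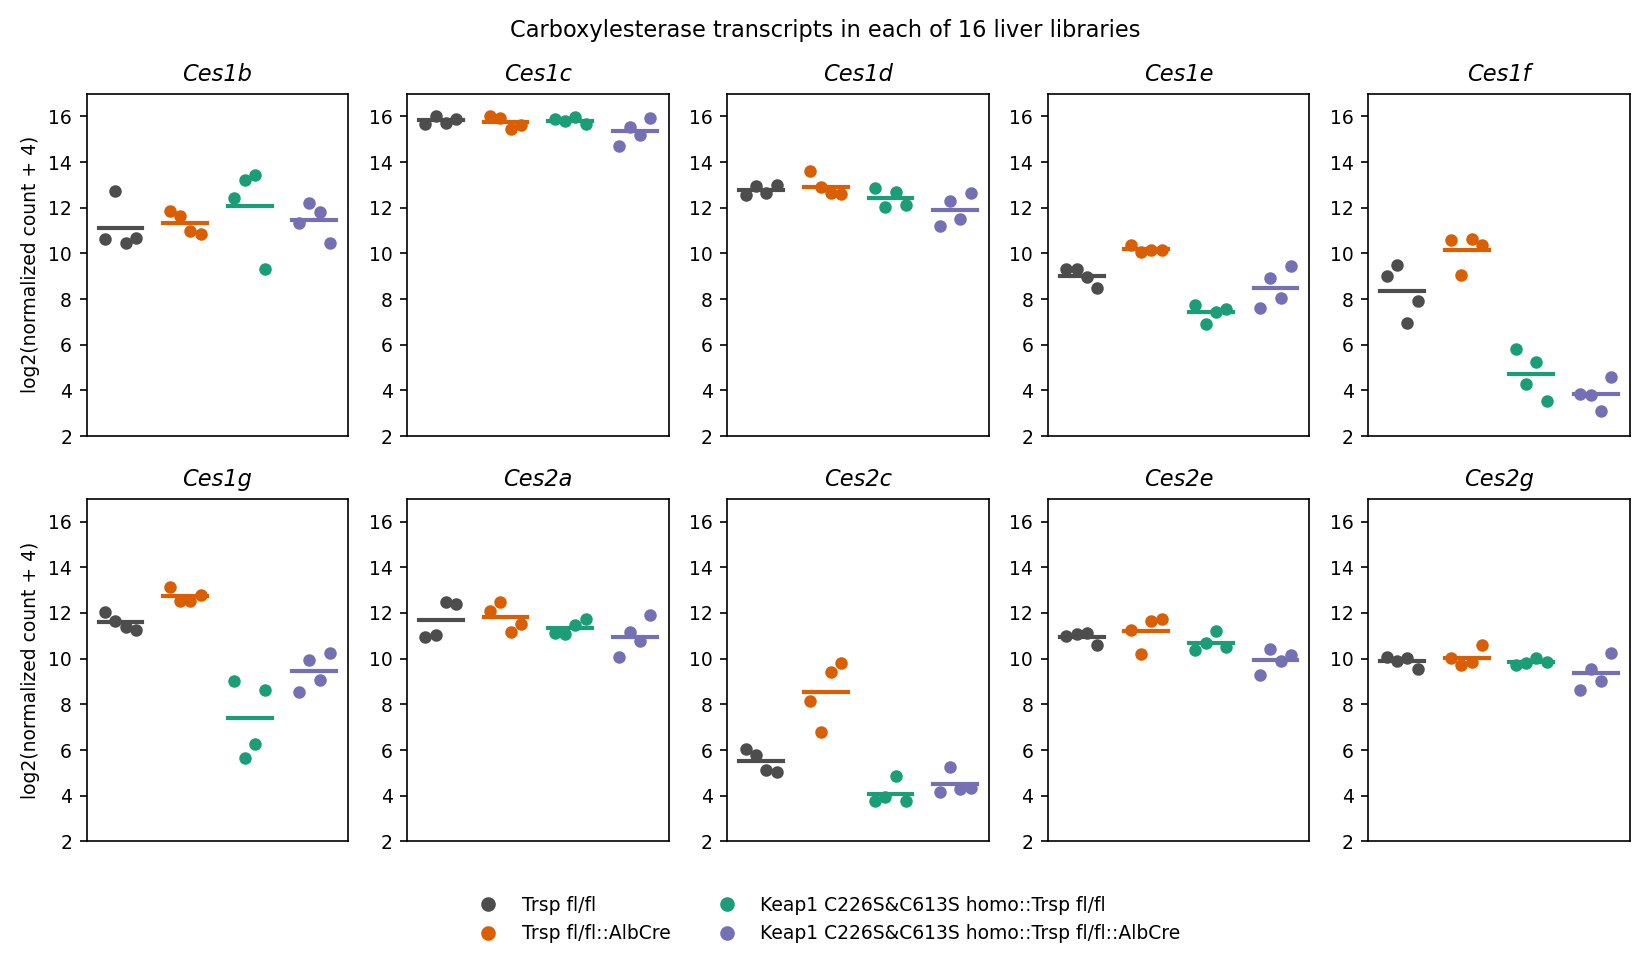
Log2(normalized count + 4) of each gene in the 16 libraries, 1 point per mouse in the order of replicate number, with a line at the mean of each genotype. *Ces1f* and *Ces1g* lie below every library without the substitutions in both genotypes that carry them, *Ces2c* is high in *Trsp* fl/fl::AlbCre, and *Ces1c* stays between 14.72 and 16.02.

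With selenoproteins present, the effect of the substitutions was compared between *Keap1* mutants and control mice. None of the 10 members was called with limma at these thresholds, where 0.00634% of all genes were called lower and 0.00634% higher. The study's own analysis of these groups reported more genes in both directions at the same cutoffs. Of the 10 members, 4 had an unadjusted p-value under 0.05, as did 9.07% of all genes, and limma voom on the recovered reads also called 0. The largest differences were in *Ces1g*, at -4.20 on the log2 scale (standard error 0.60, adjusted p = 0.017), and *Ces1f*, at -3.63 (standard error 0.56, adjusted p = 0.023). Mean normalized counts were 12.3-fold lower for *Ces1g* (256.4 against 3148) and 14.6-fold lower for *Ces1f* (26.9 against 392.4). Both were lower at an adjusted p under 0.05, where 0.0444% of all genes were lower and 0.0253% higher. Without compound mutant replicate 1, which enters the shared estimate of the spread, *Ces1e* was below 0.05 too (adjusted p = 0.031), and 11 genes in all were lower there in place of 7. *Ces1g* passed 0.01 without *Keap1* mutants replicate 1 (-4.74, adjusted p = 0.0033) and without replicate 4 (-4.61, adjusted p = 0.0057), the libraries in which it was highest.

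*Ces1e* had a log2 fold change of -1.61 (adjusted p = 0.084) and *Ces2c* of -1.41 (adjusted p = 0.41) between these groups. For *Ces1e*, *Ces1f*, *Ces1g* and *Ces2c* every mouse with the substitutions lay below every control, while 3.04% of all genes were lower and 3.19% higher without overlap. *Ces1e*, *Ces1f* and *Ces1g* are neighbours on chromosome 8. The members on the other side of them in the tandem order, *Ces1b*, *Ces1c* and *Ces1d*, had log2 fold changes of 0.98, 0.00 and -0.36, with adjusted p-values of 0.72, 1.0 and 0.76. *Ces1b* was the most variable member, with values of 12.41, 13.22, 13.45 and 9.30 in *Keap1* mutants. *Ces2a*, *Ces2e* and *Ces2g* had log2 fold changes of -0.35, -0.27 and -0.03. Summed acinar pancreas markers were 815 to 3610 in *Keap1* mutants against 235 to 628 in controls, and summed B cell markers 285 to 616 against 96.7 to 183. Here too the acinar sum was carried by *Amy2a1* (mean normalized count 2282 against 224.9) and *Pnliprp1* (98.7 against 26.9), and the other 4 measured genes had lower means, *Cela1* 47.8 against 77.7, *Ctrb1* 3.57 against 7.48, *Amy2a5* 0 against 36.1 and *Cpa1* 0.674 against 2.47. Summed erythroid markers (5 of 5) were 459 to 756 against 802 to 2000. Of these 5 genes 4 had negative log2 fold changes, and *Klf1* was higher (mean normalized count 38.3 against 35.3). Their part in these differences was not tested. Of these lists, *Amy2a1*, *Pnliprp1*, *Cd79a*, *Pax5* and *Ighm* are also in the study's selection of genes higher with the substitutions on these libraries. Hepatocyte marker sums overlapped, and so did those of the small intestine, another site of carboxylesterases (3 of 5 listed genes measured, *Alpi* at 0 in 15 libraries), at 290 to 593 against 224 to 551.

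**Figure D3:**
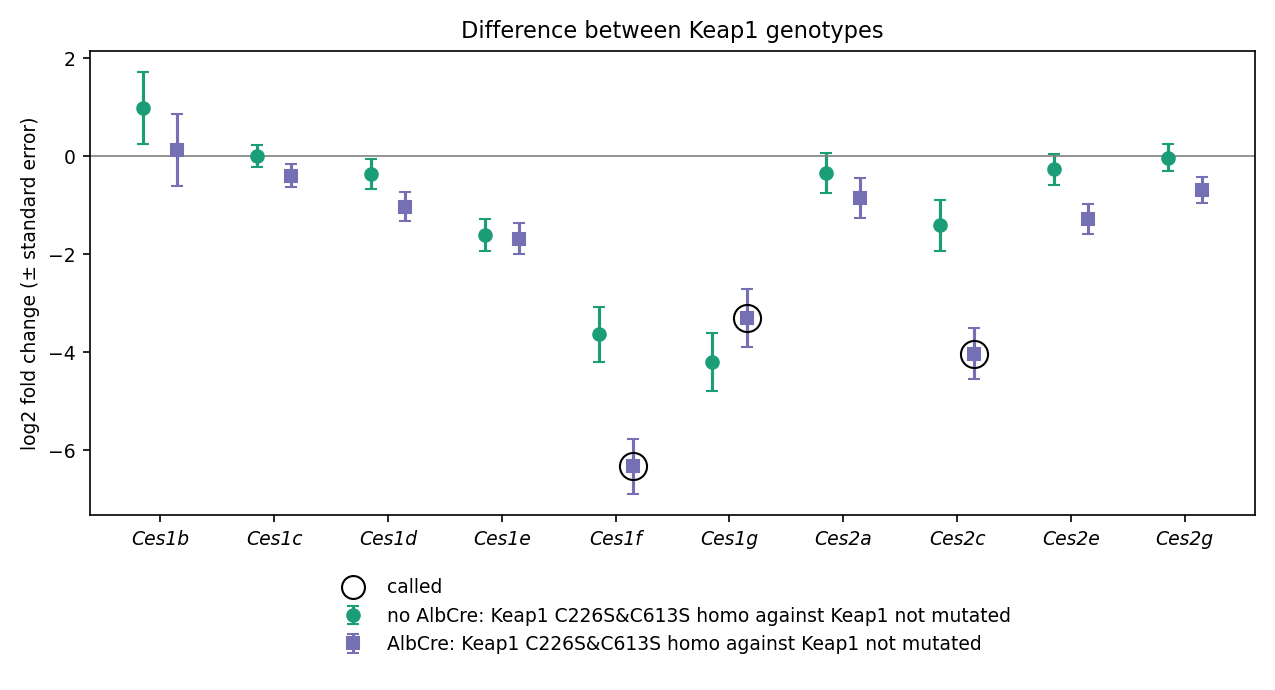
Log2 fold change of each gene between mice with and without the KEAP1 substitutions, without AlbCre (circles) and with it (squares), with bars of 1 standard error and an open ring around calls. *Ces1f* (-6.33), *Ces1g* (-3.30) and *Ces2c* (-4.03) are called with AlbCre.

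The effect of selenoprotein loss with normal KEAP1 was taken from *Trsp* fl/fl::AlbCre and control mice. This comparison shares its controls with the previous one. With limma 0 members were called, where 0.19% of all genes were called higher and 0.0253% lower. At the same cutoffs the study's own analysis of these groups reported more genes in both directions. Of the 10 members, 3 had an unadjusted p-value under 0.05, as did 11% of all genes, and limma voom also called 0. *Ces2c* came nearest, at 3.04 on the log2 scale (standard error 0.52, adjusted p = 0.0102) and a mean normalized count 11.3-fold higher (490.1 against 43.4). It was called when *Trsp* fl/fl::AlbCre replicate 2 was left out (3.62, adjusted p = 0.00035). Every *Trsp* fl/fl::AlbCre mouse lay above every control for *Ces1e*, *Ces1g* and *Ces2c*, while 3.4% of all genes were higher and 2.62% lower without overlap. At an adjusted p under 0.05 *Ces2c* was the 1 member called, where 0.317% of all genes were higher and 0.0634% lower (10 genes lower, and 16 without compound mutant replicate 1, where *Ces2c* had an adjusted p of 0.015). *Ces1e* had a log2 fold change of 1.17 (adjusted p = 0.17), *Ces1g* of 1.16 (adjusted p = 0.5) and *Ces1f*, whose groups overlapped, of 1.82 (adjusted p = 0.21). *Ces1b*, *Ces1c*, *Ces1d*, *Ces2a*, *Ces2e* and *Ces2g* had log2 fold changes of 0.21, -0.07, 0.15, 0.11, 0.27 and 0.16. Summed erythroid markers were 496 to 772 in *Trsp* fl/fl::AlbCre against 802 to 2000 in controls. Of these 5 genes 4 had negative log2 fold changes, and *Klf1* was higher (mean normalized count 47.5 against 35.3). Summed acinar markers were 83.0 to 160 against 235 to 628. *Amy2a1* (37.4 against 224.9), *Pnliprp1*, *Cela1* and *Amy2a5* had lower means. *Ctrb1* (9.2 against 7.48) and *Cpa1* (2.61 against 2.47) had higher ones. The part of these markers was not tested.

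With the substitutions in both groups, selenoprotein loss was compared between compound mutants and *Keap1* mutants. Here too limma called 0 members, with 0.0697% of all genes called higher and 0.101% lower. Of the 10 members, 3 had an unadjusted p-value under 0.05 (*Ces1e*, *Ces1g* and *Ces2e*), as did 13.6% of all genes, and limma voom also called 0. *Ces2c* was at a log2 fold change of 0.42 (standard error 0.52, adjusted p = 0.79) in place of 3.04, with 10 to 31 reads without and 15 to 39 with AlbCre. *Ces1f* had -0.88 (adjusted p = 0.53) in place of 1.82. Leaving out compound mutant replicate 1 gave 0.54 (adjusted p = 0.81) and -0.89 (adjusted p = 0.68). *Ces1g* and *Ces1e* had positive values in both, with 2.06 (adjusted p = 0.13) and 1.09 (adjusted p = 0.13) here, or 2.36 (adjusted p = 0.15) and 1.39 (adjusted p = 0.056) without compound mutant replicate 1. *Ces2e* had a log2 fold change of -0.74 (adjusted p = 0.3), or -0.53 without that library. *Ces1b*, *Ces1c*, *Ces1d*, *Ces2a* and *Ces2g* were at -0.65, -0.47, -0.53, -0.38 and -0.50, or at -0.61, -0.26, -0.29, -0.08 and -0.25 without it. At an adjusted p under 0.05 the count was 0 too, where 0.196% of all genes were higher and 0.279% lower (31 and 44 genes, and 18 and 24 without that library). No member's groups lay apart, where 3.97% of all genes were higher and 3.71% lower without overlap. Summed hepatocyte markers were 956000 to 1710000 in compound mutants against 1790000 to 2160000 in *Keap1* mutants. The median log2 fold change of these 7 markers was -0.43, with 5 negative and 2 positive, and their part was not tested.

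The difference between these effects of selenoprotein loss was tested as an interaction in the same limma fit, and 0 members were called, against 0.0317% of all genes positive and 0.0253% negative. Of the 10 members, 3 had an unadjusted p-value under 0.05, as did 10.8% of all genes, and limma voom also called 0. At an adjusted p under 0.05 the count was 0, with 0.038% of all genes positive and 0.057% negative. *Ces1f* had an interaction of -2.70 (standard error 0.79, adjusted p = 0.3) and *Ces2c* of -2.62 (standard error 0.73, adjusted p = 0.28). The values without compound mutant replicate 1 were -2.71 and -2.51, each with an adjusted p of 0.47. For *Ces2e* the interaction was -1.01, for *Ces1g* 0.90 and for *Ces1e* -0.08, or -0.80, 1.20 and 0.22 without that library. *Ces1b*, *Ces1c*, *Ces1d*, *Ces2a* and *Ces2g* had interactions of -0.85, -0.40, -0.68, -0.49 and -0.66, or -0.82, -0.19, -0.44, -0.19 and -0.41 without it. These differences did not pass the test over all genes.

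**Figure D4:**
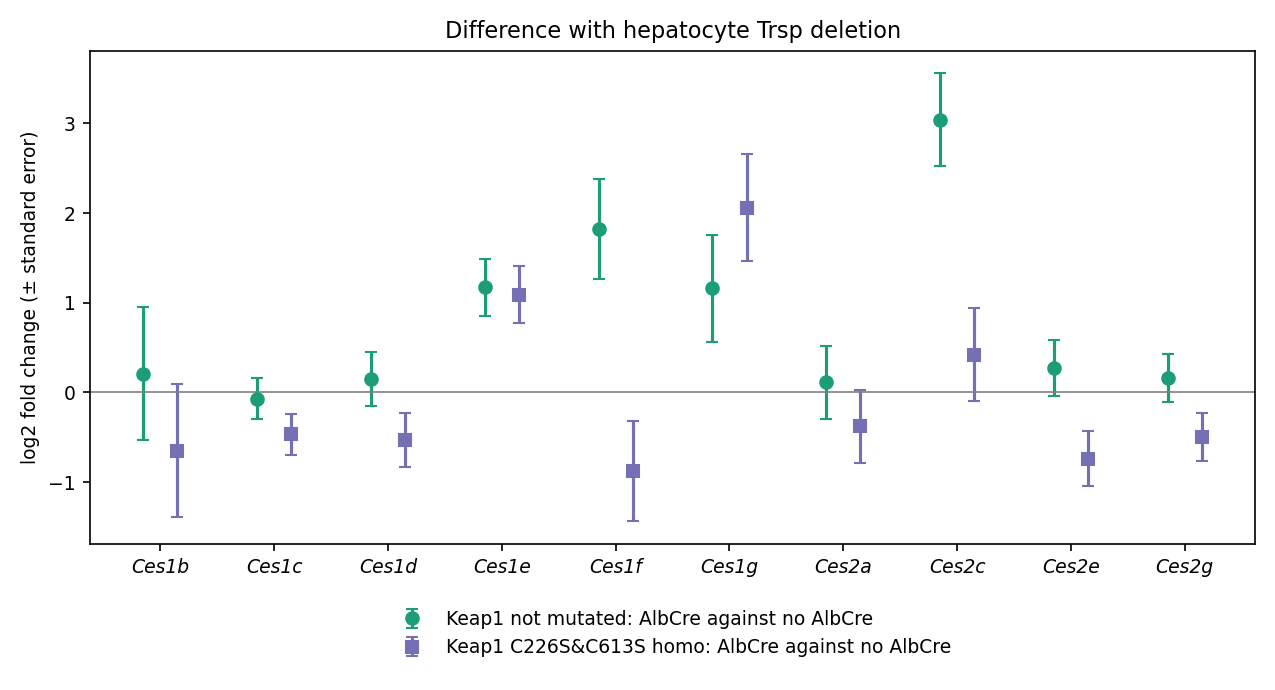
Log2 fold change of each gene between mice with and without AlbCre, with normal KEAP1 (circles) and with the substitutions (squares), with bars of 1 standard error. *Ces1f* (1.82 and -0.88) and *Ces2c* (3.04 and 0.42) lie furthest apart between *Keap1* genotypes, and the values of *Ces1e* (1.17 and 1.09) lie closest.

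Compound mutants were also set against controls, which they differ from in both genes. *Ces1f* fell by 4.51 (standard error 0.56, limma adjusted p = 0.00098), a mean normalized count 35.2-fold lower (11.1 against 392.4), and was the 1 member called of 10, where 0.076% of all genes were called lower and 0.057% higher. Without compound mutant replicate 1 the value was again -4.51 (adjusted p = 0.0047). It was not called with limma voom (-4.96, adjusted p = 0.065) or in a fit of these groups alone (adjusted p = 0.013). *Ces1g* had a log2 fold change of -2.14 (adjusted p = 0.12) and *Ces2e* of -1.01 (adjusted p = 0.16), or -1.84 and -0.79 without replicate 1. These 3 genes were lower without overlap, as were 3.14% of all genes, while 3.09% were higher without overlap. At an adjusted p under 0.05 *Ces1f* was again the 1 member called, with 0.291% of all genes lower and 0.133% higher. Without replicate 1 these went from 46 to 18 genes and from 21 to 12, and the genes called lower at 0.01 from 12 to 7. *Ces1e* and *Ces2c* were at -0.52 and -0.99 with overlapping groups, or -0.21 and -0.88 without replicate 1. *Ces1b*, *Ces1c*, *Ces1d*, *Ces2a* and *Ces2g* were at 0.34, -0.47, -0.88, -0.74 and -0.53, or 0.37, -0.26, -0.65, -0.43 and -0.28 without it, and their groups overlapped. Beside these values, summed B cell markers were 175 to 456 in compound mutants against 96.7 to 183 in controls, with all 5 genes at positive log2 fold changes (median 1.0). Summed acinar markers were 327 to 927 against 235 to 628. *Amy2a1* (mean normalized count 425.2 against 224.9), *Pnliprp1* (45.9 against 26.9) and *Cpa1* (2.95 against 2.47) had higher means. *Cela1* (47.5 against 77.7), *Ctrb1* (3.54 against 7.48) and *Amy2a5* (0 against 36.1) had lower ones. Erythroid markers were 3120 in compound mutant replicate 1 and 521 to 704 in the other 3, against 802 to 2000 in controls, with all 5 genes at negative log2 fold changes (median -0.56). Their part in the result was not tested. Set in order of genotype means, *Ces1d*, *Ces1e*, *Ces1f*, *Ces1g*, *Ces2a*, *Ces2c*, *Ces2e* and *Ces2g* were highest in *Trsp* fl/fl::AlbCre and second in controls. The means of *Trsp* fl/fl::AlbCre and controls lay apart beyond the range of the mice for *Ces1e*, *Ces1g* and *Ces2c*.

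Within the compound mutants most members were lowest, and most were highest, in the same libraries. Replicate 1 was lowest for 8 of the 10 genes and replicate 4 highest for 7. *Ces1c*, for example, was at 14.72, 15.55, 15.17 and 15.94 in replicates 1 to 4, and *Ces2g* at 8.61, 9.56, 9.01 and 10.24. The summed hepatocyte markers of the same libraries were 956000, 1570000, 1290000 and 1710000, in the same order as these genes. Their part in the spread of the members was not tested. *Ces1b* was lowest in replicate 4 (10.45) and *Ces1f* in replicate 3 (3.10), and *Ces1b*, *Ces2c* and *Ces2e* were highest in replicate 2. The share of all genes lowest or highest in these libraries was not taken. In the other genotypes no library was highest for more than 5 members or lowest for more than 5.

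Other carboxylesterase genes in the table, *Ces2b*, *Ces3a*, *Ces3b* and *Ces4a*, were not called in any of the 6 comparisons with limma. *Ces3a* had the widest difference, -2.54 (adjusted p = 0.19) in compound mutants against controls, with values of 6.62, 8.52, 7.70 and 10.47 against 11.88, 11.95, 8.94 and 10.68. Among 22 other hydrolases of esters, lipids and epoxides, *Ephx1*, the microsomal epoxide hydrolase that detoxifies reactive epoxides, rose by 2.20 in *Trsp* fl/fl::AlbCre relative to controls (adjusted p = 0.00045) and fell by 1.61 in compound mutants relative to *Trsp* fl/fl::AlbCre (adjusted p = 0.0046). No other gene of that list was called. The median log2 fold change of the list was -0.01 and -0.32 in these comparisons, against -0.01 and 0.01 over all genes tested.

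Of 12 genes of triglyceride storage and lipoprotein assembly, *Fitm1*, which helps to form lipid droplets, fell by 2.54 in compound mutants relative to *Trsp* fl/fl::AlbCre (adjusted p = 0.0052), and no other was called in any comparison. Genes of the nuclear receptors and liver factors (12 listed) were not called in any comparison. The largest differences with the substitutions in the presence of selenoproteins were in *Cebpa*, a liver transcription factor, with a log2 fold change of 0.97 (adjusted p = 0.071), and *Nr0b2*, a corepressor, with -0.76 (adjusted p = 0.61). In *Keap1* mutants against controls, 11 of these 12 were positive and 1 negative (median 0.21). In compound mutants against *Trsp* fl/fl::AlbCre, 10 of these 12 were negative and 2 positive (median -0.23). Of 14 target genes of CAR and PXR, 12 were tested and 0 called by limma in any comparison. *Cyp2b10*, a CAR-induced cytochrome P450, had a log2 fold change of -1.03 (adjusted p = 0.55) in *Keap1* mutants against controls. There *Cyp3a41a* was at 0.99 (adjusted p = 0.8), and both had few reads. In *Keap1* mutants against controls, 8 of the 12 targets were positive and 4 negative (median 0.15). In compound mutants against *Trsp* fl/fl::AlbCre, 10 of the 12 targets were negative and 2 positive (median -0.63, against 0.01 over all genes). Their interaction was negative for 11 and positive for 1 (median -0.85). The part of these lists in the levels of the members was not tested.

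The 10 reference genes of NRF2 were set beside the members. In *Trsp* fl/fl::AlbCre 7 of them were called higher than in controls (*Abcc4*, *Gsta2*, *Gstm1*, *Gstm3*, *Nqo1*, *Srxn1* and *Ugdh*), and in compound mutants 7 were called lower than in *Trsp* fl/fl::AlbCre (*Abcc4*, *Gsta4*, *Gstm1*, *Gstm3*, *Nqo1*, *Srxn1* and *Ugdh*). Their median log2 fold changes were 2.11 and -1.88. With the substitutions and selenoproteins present, *Nqo1* was the 1 called, with a log2 fold change of -1.82 (adjusted p = 0.0015). *Gsta2* and *Ugdh* were called higher in compound mutants than in *Keap1* mutants, and *Gstm3* lower in compound mutants than in controls. All of the reference genes but *Gclm*, and *Ephx1* too, are in the study's selection of genes raised by *Trsp* deletion on these libraries, so their directions are not independent evidence.

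Genes whose pattern was most like that of a member were found by the root mean square difference over the 16 libraries, each gene centred on its own mean. For *Ces1f* the nearest were *Gstm3* (0.88), *Cyp26a1* (1.37), *Aldh1a7* (1.37), *Aldh1a1* (1.40) and *Gm49668* (1.48), where the median over all genes tested was 2.72. *Gstm3*, a glutathione S-transferase, had genotype means of 10.24, 13.15, 7.91 and 7.28 in the order controls, *Trsp* fl/fl::AlbCre, *Keap1* mutants and compound mutants, beside 8.33, 10.15, 4.71 and 3.82 for *Ces1f*. For *Ces2c* the nearest were *Gm49668* (0.37), *Vtcn1* (0.73), *Gstm4* (0.79), *Nqo1* (0.84) and *Gm4756* (0.87), with a median over all genes of 1.91. *Nqo1*, a quinone reductase, had genotype means of 7.37, 9.65, 5.55 and 6.68, beside 5.5, 8.54, 4.09 and 4.51 for *Ces2c*. The 16 libraries are 4 genotypes, and any gene that differs in the same way between them comes near by this measure.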

How the data were processed

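RNA of whole liver was sequenced from 16 mice as rRNA-depleted, directional paired-end libraries. Per the labels and the paper's methods, Salmon quantified the reads on GENCODE mouse transcripts, and the authors analysed expression on iDEP. The methods describe TPM, which is not the unit found in the table. The authors deposited log2 values, which were checked to be log2(reads/size factor + 4): 100% of low values gave whole reads (tolerance 0.05 reads). The table had 18578 rows, and 369 without an identifier, holding 0.2736% to 0.6267% of the reads, were left out.

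Values were fitted with limma 3.58.1 (R 4.3.3, lmFit and eBayes with trend) on all 16 libraries, with a mean per genotype and no covariate, for the 15781 genes whose normalized count reached 10 in 4 or more libraries. Calls needed a log2 fold change beyond 1 in size, and p under 0.01 after Benjamini-Hochberg adjustment. The labels do not say whether litters or batches were shared. Each p-value sets a difference among genotype means against the spread of these mice within genotypes, pooled over the genotypes. Levels per length (RPKM) were computed here with the longest coding transcript in GENCODE M21. Promoters and gene order are from RefSeq on GRCm38.p6, and the authors name another GENCODE release, so no deposited value was placed by coordinate. Python 3.11.15 with pandas 2.3.3 and matplotlib 3.10.9 gave the summaries and figures.

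The members and lists were chosen with earlier results of these data known. All 10 members are named in every comparison. Of each list, called genes are named, and otherwise the 2 with the largest difference with the substitutions when selenoproteins are present. Alternatives were a constant of 1, no filter or a filter at 50, quantile normalization, library totals, limma voom, eBayes without trend, the compared groups alone, the replicate number as a block, an adjusted p under 0.05, and each library left out in turn.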

Additional observations from a re-analysis of the deposited data

Results flagged for a closer look

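In 40 groups of 4 values (10 genes in 4 genotypes), the highest or lowest library stood apart from the other 3 in 3 groups, by a gap beyond Dixon's critical value for 4 samples. Chance gives about 2 of 40. *Ces1b* was at 12.73 in control replicate 2, *Ces1f* at 9.06 in *Trsp* fl/fl::AlbCre replicate 2, and *Ces2c* at 5.26 in compound mutant replicate 2. The first gene shares transcript sequence with *Ces1c* and the last with *Ces2d-ps*.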

How the results depend on the processing

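Of 1550 log2 fold changes of members under an alternative, 1501 were counted as keeping their direction and side of the threshold. A further 15 gained a call, 17 lost one and 17 changed sign. A difference that rounds to 0 was not counted as changing sign. This held for *Ces1c* in *Keap1* mutants against controls, which ran from -0.05 to 0.06 with a library left out. In *Trsp* fl/fl::AlbCre against controls, members called higher were 0, and 1 (*Ces2c*) with a filter at 50, quantile normalization, library totals or an adjusted p under 0.05 (0 to 1 with a library left out). In *Keap1* mutants against controls, members called lower were 0, 1 with library totals and 2 at an adjusted p under 0.05 (0 to 1 with a library left out). In compound mutants against *Trsp* fl/fl::AlbCre they were 3, and 5 at an adjusted p under 0.05 (2 to 4 with a library left out), and *Ces1e* was gained with library totals (-1.55, adjusted p = 0.0087). In compound mutants against controls they were 1, and 0 with limma voom or the compared groups alone. The cause was not tested.

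Replicate numbers did not pair the libraries: the correlation of same-numbered libraries was between -0.32 and 0.31 (median -0.04), over 0.1 in 4 of 24 pairs, and 0 libraries were nearest their own number. With the replicate block, *Ces1g* lost its call in compound mutants against *Trsp* fl/fl::AlbCre (-3.30, adjusted p = 0.014), leaving 2 members lower, and no other member's call changed. It was also lost with eBayes without trend (adjusted p = 0.014).

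All sign changes counted were in differences near 0. With *Trsp* deletion and normal KEAP1, leaving out a library turned *Ces1b* to -0.01 (control replicate 3), *Ces1c* to 0.03 and *Ces1d* to -0.08 (*Trsp* fl/fl::AlbCre replicates 3 and 1), *Ces2a* to -0.15 and -0.11 (control replicates 1 and 2) and -0.11 (*Trsp* fl/fl::AlbCre replicate 2), and *Ces2g* to -0.02 (*Trsp* fl/fl::AlbCre replicate 4). With the substitutions and selenoproteins present, *Ces2g* turned to 0.03 and 0.02 (control replicates 1 and 3) and 0.01 (*Keap1* mutant replicate 1). In compound mutants against *Trsp* fl/fl::AlbCre, *Ces1b* turned to -0.04 (*Trsp* fl/fl::AlbCre replicate 4) and -0.12 (compound mutant replicate 2). The interaction of *Ces1e* turned to 0.05 with library totals, and to 0.10, 0.03, 0.22 and 0.08 without control replicate 4, *Keap1* mutant replicate 1, and compound mutant replicates 1 and 3.

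Over all libraries left out in turn, these values reached 0.75 (*Ces1b*), -0.16 (*Ces1c*), 0.26 (*Ces1d*), 0.36 (*Ces2a*) and 0.26 (*Ces2g*) with *Trsp* deletion and normal KEAP1, 0.46 (*Ces1b*) in compound mutants against *Trsp* fl/fl::AlbCre, and -0.4 for the interaction of *Ces1e*.

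With 5 to 20 reads of *Ces1f* in compound mutants, counting error adds to the spread there.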
